A study of Mus musculus with 17 samples.

Results

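The comparison described here is that of splenic cDC2s given debris of apoptotic tumor cells with cDC2s given medium of live tumor cells. Its members are 6 of the 17 samples of the series, namely the 3 samples labelled BimS and the 3 labelled WT among the type 2 conventional dendritic cells. All 19239 genes that passed a filter on low counts were compared. The samples were RNA-seq libraries of polyadenylated RNA from cDC2s that were sorted after 6 h of culture. TC-1, a lung epithelial tumor line, supplied the medium in both groups. In the BimS group it came from TC-1-iBimS cells, clonal cells that carry the reporter zsGreen and in which cumate turns on BimS, a short form of the pro-apoptotic protein BIM. In the WT group it came from unmodified TC-1 cells, which were also treated with cumate. The cDCs of both groups were CD11c+ cells enriched from spleens of C57BL/6JRj mice that carried a tumor secreting FLT3L, a growth factor that expands cDCs. They were therefore cells of mice with an expanded cDC compartment. The cells were not sorted on uptake of debris, so each sample holds cDC2s with and without ingested material. Medium of dying cells holds debris together with whatever else those cells released, and the effects of these cannot be told apart here. Spleens of more than 1 mouse were pooled for an experiment per the study's methods, and nothing in the labels says that replicates came from separate pools, so the p-values measure the spread between these samples, which may be partly technical.

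cDC2s are dendritic cells that take up antigen, move to lymph nodes and present peptides on MHC class II to CD4+ T cells. A phagocyte that ingests dead cells has to break down proteins, nucleic acids, membrane lipids and heme-containing proteins of the corpse. Heme and electrophiles activate the transcription factor NRF2 and inactivate its competitor BACH1, which together control genes for heme breakdown, iron storage and glutathione. Cholesterol supply is sensed by SREBP2, which turns on sterol synthesis when sterols are low, and by LXR, which turns on sterol efflux and fatty acid desaturation when sterols are high. Type I interferon acts through factors that include STAT2 and IRF9 on a set of antiviral genes.

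The 6 libraries held between 16792907 and 20240545 counts. Mitochondrial genes took 0.629% to 0.661% of the counts in WT and 0.678% to 0.689% in BimS, and genes of ribosomal proteins took 2.85% to 3.69% and 2.72% to 3.08%. The most abundant transcript in each of the 6 libraries was Fth1, with 0.781% to 1.14% of the counts in WT and 1.78% to 2.22% in BimS. Samples with the same replicate number deviated together from their group means. The replicate number was therefore also used as a block.

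Apoptotic debris was followed by higher mRNA levels of 732 genes and lower levels of 617 genes. By the quasi-likelihood test of edgeR these 1349 genes were 7.01% of the 19239 tested, at an adjusted p under 0.05, and 3506 had an unadjusted p under 0.05. Genes called higher were 3.80% and genes called lower 3.21% of all tested. Large changes were more often rises: 175 genes rose by more than 1 on the log2 scale and 71 fell by more than 1. Levels are given as CPM, the counts of a gene scaled to a fixed library total. Among the 7779 abundant genes, those whose average log2 CPM was 3 or more, 79 rose and 16 fell by that much. The typical size was alike, with a median of 0.49 for abundant genes called higher and -0.49 for those called lower. The CPM ranges of the groups did not overlap in 577 of 581 abundant genes that rose and in 446 of 449 that fell, against 11.2% and 11.8% of all genes tested. The median change over all genes tested was -0.019 on the log2 scale. With the replicate number as a block, 4103 genes were called, 2116 higher and 1987 lower, and these included all 732 and all 617 of the first count, each in the same direction. That fit put the variation left after the replicate effect at a coefficient of 3.87%. Without the block, the variation between replicates was at 9.58%. Without WT replicate 2 the count was 783 (487 higher and 296 lower). Without BimS replicate 1 it was 896 (544 and 352), and without BimS replicate 2 it was 878 (501 and 377). Limma was run on log2(count + 1) of raw counts, without scaling for library size. With it the balance was the other way, with 446 genes higher and 613 lower, and with limma and the block 525 and 827. Of the 156 called genes that are named below, 109 were called in the same direction under each of the 16 alternative settings that gave them a value, and 47 lost the call under at least 1 of them, with no change of sign.

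**Figure D1:**
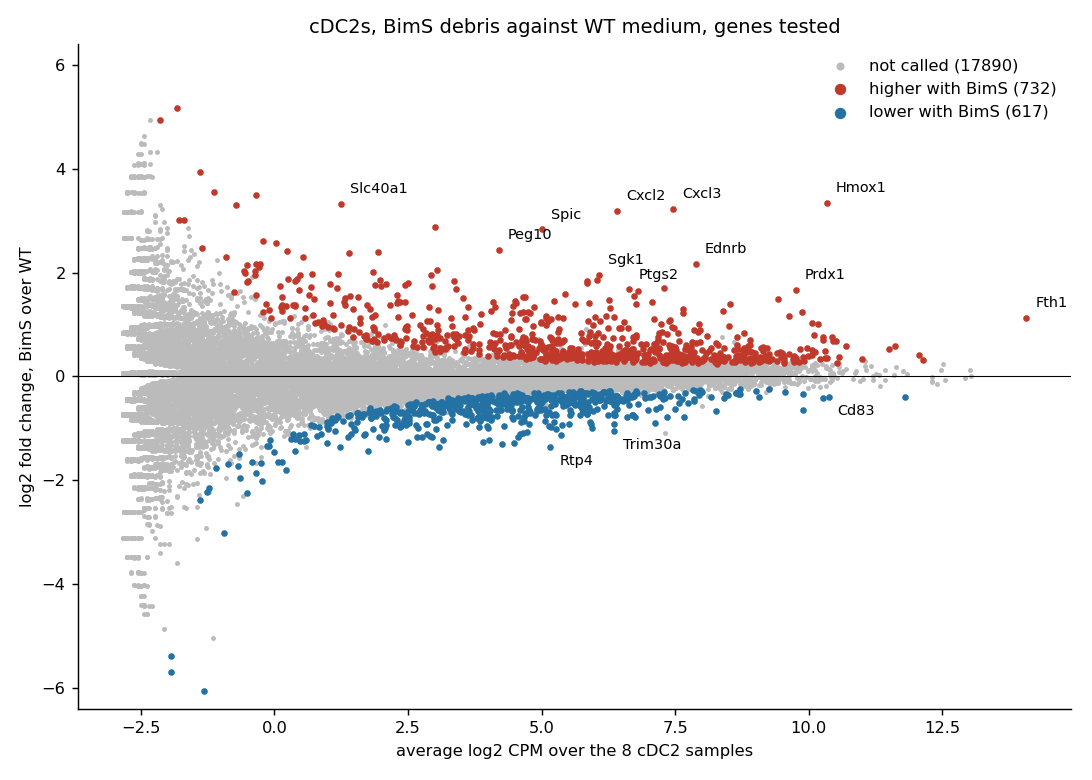
Each point is 1 of the 19239 genes tested. The horizontal axis gives its average log2 CPM over the 8 cDC2 samples and the vertical axis its log2 fold change with BimS debris over WT medium, with the 732 genes called higher in red and the 617 called lower in blue. Hmox1, Cxcl3 and Cxcl2 stand highest among called abundant genes, with changes of 3.34, 3.22 and 3.19, while no abundant gene called lower fell by more than 1.36.

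Hmox1, which encodes the inducible heme oxygenase, showed the largest rise among called abundant genes. It stood at 114, 179 and 161 CPM in the WT samples and at 1380, 1569 and 1658 CPM in the BimS samples, a log2 fold change of 3.34 ± 0.15 (SE) with an adjusted p = 1.77e-07. The lowest BimS sample was thus far above the highest WT sample. The gene lies at chr8:75820241-75827217 on build GRCm39. Next came the neutrophil-attracting chemokines Cxcl3, with 25.6, 25.4 and 29.5 CPM in WT and 259, 221 and 269 CPM in BimS (log2 fold change 3.22 ± 0.10 (SE), adjusted p = 5.18e-14), and Cxcl2, with 14.2, 13.3 and 12.6 and 133, 111 and 122 CPM (log2 fold change 3.19 ± 0.11 (SE), adjusted p = 1.59e-13). Replicates of both chemokines lay close together within each group. On build GRCm39 these neighbouring genes lie at chr5:90933962-90937459 and chr5:91051730-91053797.

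The 15 largest rises and the 15 largest falls were chosen among called abundant genes whose CPM ranges do not overlap, so that separation is given by the choice. The other 12 rises spanned several functions. Ptgr1, a reductase that inactivates prostaglandins and leukotriene B4, rose by 2.87 on the log2 scale. Spic, a transcription factor induced by heme in macrophages of the spleen, stood at 4.41, 8.11 and 7.76 CPM in WT and 42.6, 47.9 and 53.1 CPM in BimS. It had a log2 fold change of 2.83 ± 0.18 (SE) with an adjusted p = 1.28e-06, and no BimS sample was near the WT range. Ednrb, an endothelin receptor, went from 81.1, 71.8 and 71.9 CPM to 358, 314 and 341 CPM (log2 fold change 2.17 ± 0.09 (SE), adjusted p = 3.89e-12). Sgk1, a kinase of the PI3K pathway that responds to glucocorticoids and osmotic stress, went from 22, 25.3 and 22.3 to 88.8, 86.7 and 94.9 CPM (log2 fold change 1.96 ± 0.09 (SE), adjusted p = 2.36e-11). Peg10 rose by 2.43, Sel1l3 by 2.05, Pla2g7, which hydrolyses platelet-activating factor and oxidised phospholipids, by 1.86, and Met, the receptor of hepatocyte growth factor, by 1.84. Treml4, a receptor that binds dead cells, rose by 1.83, Slc48a1, a heme transporter of the lysosomal membrane, by 1.71, and Ptgir, the prostacyclin receptor, by 1.68.

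The 15 largest falls were smaller, and 8 of them are members of the list of 50 interferon-stimulated genes described below. Rtp4 fell most among called abundant genes, from 55.6, 55.7 and 74.7 CPM in WT to 26.9, 19.9 and 25.5 CPM in BimS (log2 fold change -1.36 ± 0.17 (SE), adjusted p = 0.000263). Xaf1 went from 40.5, 34.9 and 38 to 17.5, 13.4 and 15.7 CPM (log2 fold change -1.29 ± 0.11 (SE), adjusted p = 2.74e-07), and Ifit3, an RNA-binding antiviral protein, from 25.2, 28.2 and 29.7 to 12.8, 9.38 and 13.4 CPM (log2 fold change -1.23 ± 0.14 (SE), adjusted p = 1.57e-05). The other members of the list among these 15 were Slfn5 (-1.12), Oas2 (-1.11), Ifit1 (-1.09), Dhx58 (-1.07) and Trim30a (-1.06), as log2 fold changes. Outside the list, 9930111J21Rik2 (-1.35), Lgals3bp (-1.26), Ifi47 (-1.23), Tgtp2 (-1.01) and Trim30d (-1.01) fell too, of which Ifi47 and Tgtp2 are interferon-induced GTPases. 9930111J21Rik2, Tgtp2, Trim30a, Trim30d, Ifit3 and Ifit1 have close relatives in the mouse genome, and how the authors' counting shared reads between such copies is not known, so the values of single copies are uncertain. With 1 library left out, the call was lost for Trim30d (WT replicate 2 or BimS replicates 2 or 3).

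The other 2 falls were those of Scd1 and Irf4. Scd1, the main stearoyl-CoA desaturase, stood at 28.2, 31.4 and 32.3 CPM in WT and 10.3, 12.8 and 14.1 CPM in BimS (log2 fold change -1.30 ± 0.13 (SE), adjusted p = 1.17e-06). Irf4, a transcription factor needed for cDC2 development and migration, stood at 37, 39.2 and 34.8 CPM in WT and 15, 19.6 and 14.9 CPM in BimS (log2 fold change -1.16 ± 0.11 (SE), adjusted p = 8.71e-07).

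**Figure D2:**
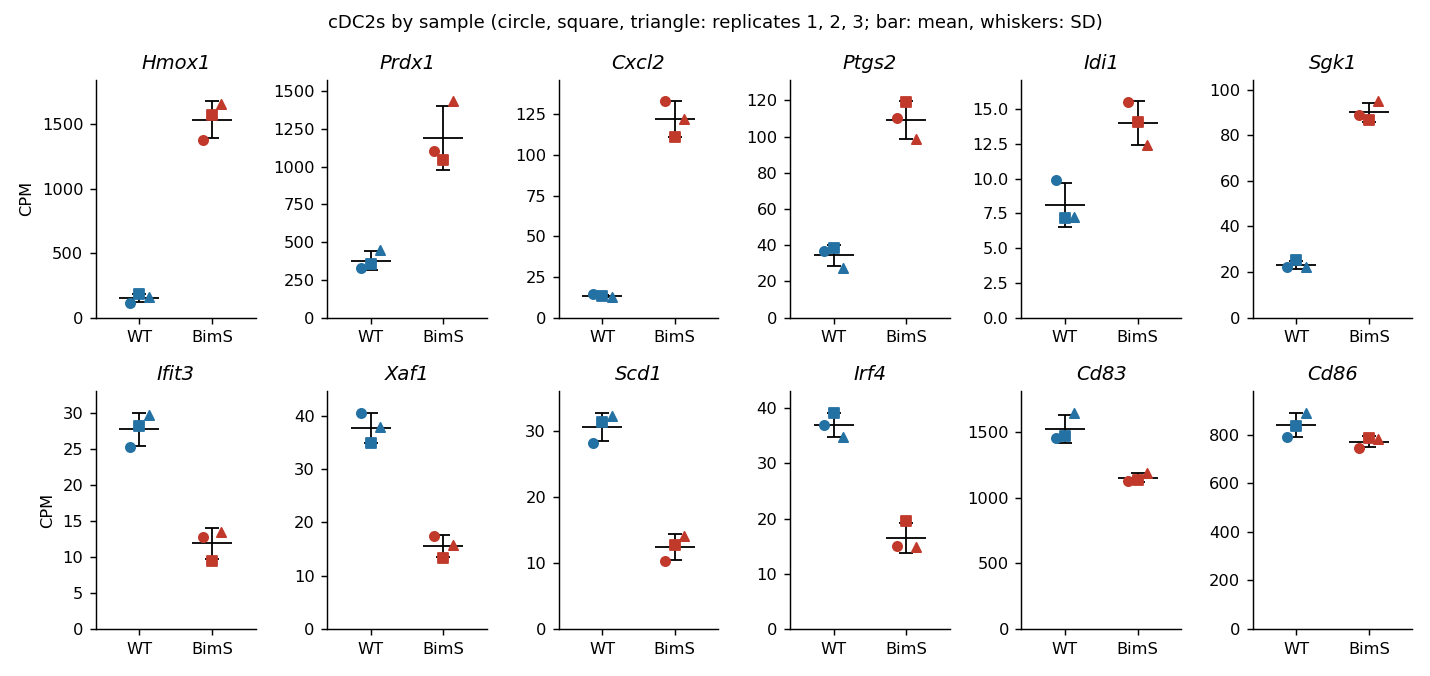
CPM of 12 genes in the 3 WT and 3 BimS samples of cDC2s, with the mean as a bar, the SD as whiskers and a marker shape for each replicate number. BimS samples lay outside the WT range for each of these genes, which the choice of the largest changes required for Hmox1, Cxcl2, Sgk1, Ifit3, Xaf1, Scd1 and Irf4, and also for Cd86, whose small difference was not called without the block (adjusted p = 0.445).

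Heme degradation, iron handling and NRF2 targets were the list with the most rises: of 31 genes, all of them tested, 27 rose, 1 fell and 3 were not called, with a median log2 fold change of 0.93. Besides Hmox1 and Slc48a1 these were led by Slc40a1, which encodes the iron exporter ferroportin. Its levels were low, 0.513, 0.173 and 0.375 CPM in WT and 3.7, 2.7 and 4.61 CPM in BimS, a log2 fold change of 3.32 ± 0.33 (SE) with an adjusted p = 1.06e-06. Me1, an NADPH-producing malic enzyme, rose by 1.78 from a mean of 1.7 CPM. The iron storage chains Fth1 and Ftl1 rose by 1.13 and 1.00. Fth1 went from 7502, 9278 and 10860 CPM to 18200, 19660 and 22630 CPM (log2 fold change 1.13 ± 0.12 (SE), adjusted p = 3.02e-05). It thus made up a share of the library in BimS that no WT sample reached.

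Several antioxidant enzymes of this list rose and 1 fell. Prdx1, a peroxiredoxin, went from 328, 352 and 447 CPM in WT to 1100, 1041 and 1432 CPM in BimS (log2 fold change 1.66 ± 0.14 (SE), adjusted p = 1.27e-05). Nqo1, a quinone reductase and classical NRF2 target, went from 48.8, 42.1 and 57.5 to 162, 132 and 168 CPM (log2 fold change 1.64 ± 0.14 (SE), adjusted p = 1.15e-05). Gclm and Gclc, the subunits of the enzyme that makes the glutathione precursor, rose by 1.49 and 1.22, the glutathione reductase Gsr by 1.25, and Slc7a11, which imports cystine, by 0.76. Gpx1, a glutathione peroxidase that uses selenium, was the single member that fell, from a mean of 134 to 78.1 CPM (log2 fold change -0.78 ± 0.10 (SE), adjusted p = 3.4e-05). The mRNA of Nfe2l2, which encodes NRF2 itself, was 293, 293 and 290 CPM in WT and 308, 306 and 323 CPM in BimS and was not called (adjusted p = 0.552 without and 0.086 with the block), although each BimS value was above each WT value and it was called with DESeq2 and the block and with the block and these groups alone.

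The promoters of Gclm and Prdx1 are shown because both genes rose in this list and both hold a match to the core letters of the antioxidant response element, TGACNNNGC on either strand. They are the 250 bases before the annotated start, from RefSeq on build GRCm38.p6, 5′ to 3′ along the gene, with the match in capitals. Gclm is at chr3:122245307-122245556 and Prdx1 at chr4:116685349-116685598, both on the plus strand. Over windows of 300 bases, which also take in the 50 bases after the start, 30.6% of 36 promoters of this list and 18.8% of 729 promoters of genes that rose held the letters, against 14.2% of 14475 promoters of genes tested and 12.4% of all 32851 promoters in the table. A match is a description of letters and not a measured binding site.
Gclm: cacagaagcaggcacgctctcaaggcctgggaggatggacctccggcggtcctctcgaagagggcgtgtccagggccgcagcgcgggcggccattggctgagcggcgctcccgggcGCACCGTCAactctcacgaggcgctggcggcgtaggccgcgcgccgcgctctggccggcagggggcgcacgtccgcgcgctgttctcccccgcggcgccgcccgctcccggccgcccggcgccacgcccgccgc
Prdx1: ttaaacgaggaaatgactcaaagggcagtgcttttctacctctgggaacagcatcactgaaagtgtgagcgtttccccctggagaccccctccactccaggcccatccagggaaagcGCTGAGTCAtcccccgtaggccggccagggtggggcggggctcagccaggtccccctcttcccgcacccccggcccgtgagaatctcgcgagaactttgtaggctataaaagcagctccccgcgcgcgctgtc

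Genes of cholesterol synthesis and uptake rose in part: 15 of 27 rose and 12 were not called, with a median of 0.40, while limma called 8 higher. None fell by edgeR, DESeq2 or limma, nor did any at an unadjusted p under 0.05. Idi1, of isoprenoid synthesis, stood at 9.9, 7.19 and 7.22 CPM in WT and 15.5, 14.1 and 12.4 CPM in BimS (log2 fold change 0.79 ± 0.14 (SE), adjusted p = 0.00109). Sqle, squalene epoxidase, stood at 8.57, 8.69 and 9.53 CPM and 23, 21.7 and 17.3 CPM (log2 fold change 1.21 ± 0.13 (SE), adjusted p = 2.15e-06). Every BimS value was above every WT value in both. Cyp51, lanosterol demethylase, rose by 0.85 and Hsd17b7 by 0.92. Omitting 1 library removed the call for Hsd17b7 (WT replicates 1 or 2 or BimS replicate 2). Hsd17b7 was not called by limma.

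Of 19 LXR targets and genes of fatty acid desaturation 5 fell, 1 rose and 13 were not called, and with the replicate block 7 fell and 4 rose. The median was -0.13, or -0.047 without WT replicate 2, and 8 of the 19 estimates were positive. The cholesterol exporter Abcg1 went from 110, 119 and 104 CPM in WT to 59.4, 59.1 and 57.6 CPM in BimS (log2 fold change -0.92 ± 0.09 (SE), adjusted p = 5.69e-07). Scd2 fell by 0.75, the desaturase Fads1 by 0.74 and the elongase Elovl5 by 0.63, beside Scd1 above. Fads2, another desaturase, was the member that rose (0.93). Leaving out 1 library ended the call for Fads2 (BimS replicate 2).

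Lipid droplets and lipid uptake had 6 rises and 1 fall among 19 genes tested, with a median of 0.14, and 8 rises and 4 falls with the block. The calls were 4 without WT replicate 2, and the median was 0.072 with limma and 0.25 without the filter on low counts. Lipa, the lysosomal lipase that frees cholesterol from ingested esters, went from 86.9, 98 and 100 CPM to 174, 185 and 212 CPM (log2 fold change 1.00 ± 0.09 (SE), adjusted p = 3.3e-07). The scavenger receptor Cd36 went from 314, 334 and 287 CPM to 556, 590 and 514 CPM (log2 fold change 0.83 ± 0.08 (SE), adjusted p = 1.09e-06). Hilpda, a lipid droplet protein, rose by 1.74 and Ppard, a lipid-sensing nuclear receptor, by 0.51. Mgll, which degrades monoacylglycerol, was close to the detection limit at a mean of 0.158 CPM in WT and 0.744 CPM in BimS. Npc2, which carries cholesterol out of lysosomes, fell by 0.36. With 1 library left out, the call was lost for Mgll (WT replicate 2 or BimS replicate 3) and Npc2 (WT replicate 2 or BimS replicate 1).

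**Figure D3:**
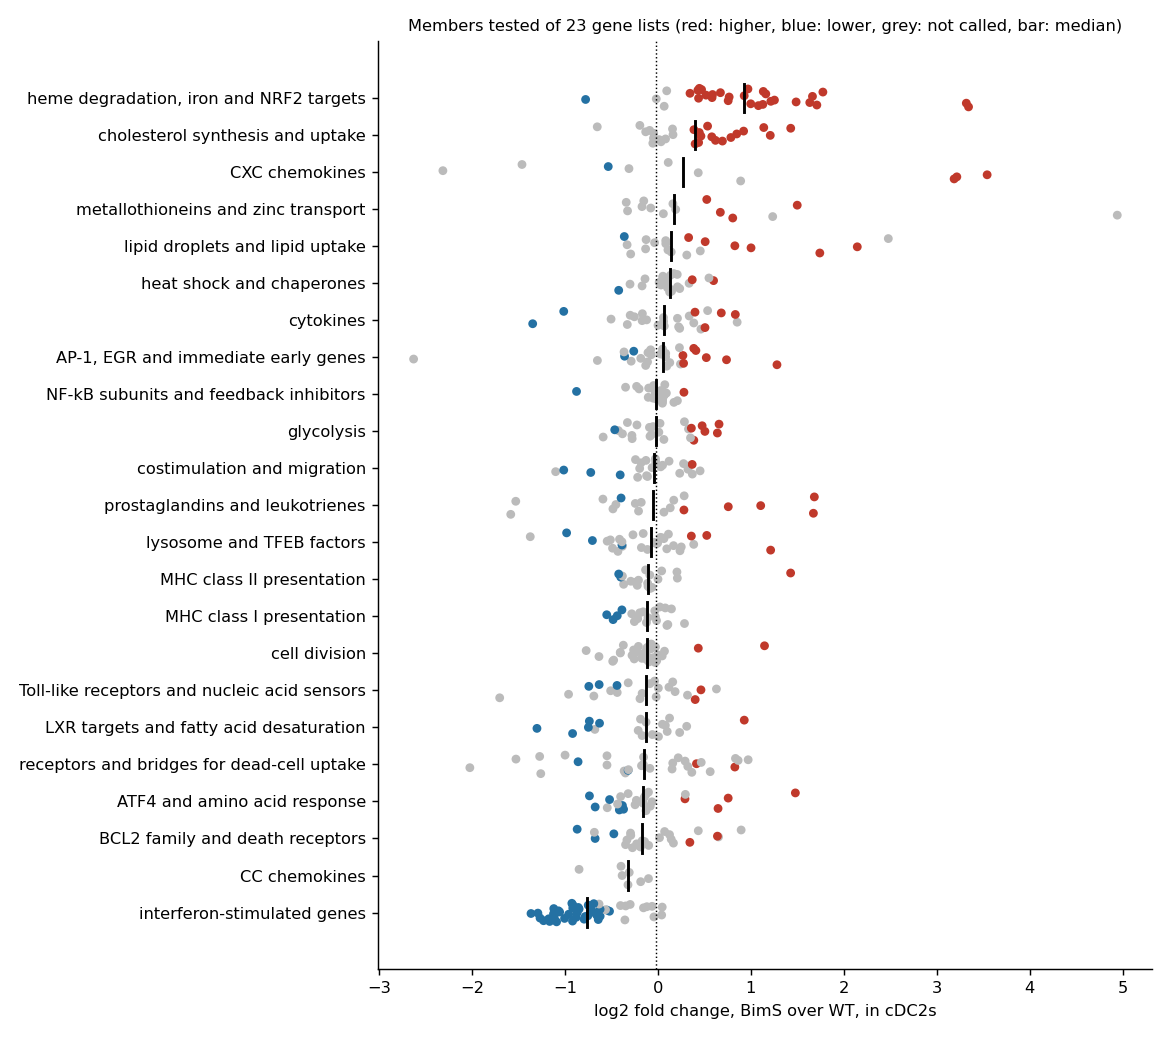
Log2 fold changes with BimS debris over WT medium in cDC2s for the tested members of 23 gene lists, 1 point a gene, in red where called higher, in blue where called lower and in grey where not called. Black bars are list medians and the dotted line is the median of all genes tested, and the interferon list (median -0.77) and the heme and NRF2 list (median 0.93) lie at the ends.

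Among 10 CXC chemokines tested, 3 rose, 1 fell and 6 were not called. Their median was 0.27, but it was -0.045 without WT replicate 1, -0.20 without BimS replicate 1, 2.0 without WT replicate 3 and -0.079 without the filter on low counts. Cxcl5 rose beside Cxcl2 and Cxcl3, from 0.154, 0 and 0 CPM to 0.97, 0.561 and 0.591 CPM, which is at the edge of detection, and DESeq2 gave it no adjusted p and called 2 members higher and 1 lower. Cxcl10, the interferon-induced ligand of CXCR3, went from 10.8, 12 and 12.4 CPM to 8.61, 7.75 and 7.98 CPM (log2 fold change -0.53 ± 0.13 (SE), adjusted p = 0.0114). Cxcl16 was the most abundant member, with a mean of 342 CPM in WT and 370 CPM in BimS (adjusted p = 0.47 without and 0.0291 with the block). None of 7 CC chemokines tested was called by edgeR or DESeq2 without the block, 2 were lower at an unadjusted p under 0.05 by edgeR, limma called 1 lower, and all 7 estimates were negative (median -0.32). Ccl22, which attracts regulatory T cells, stood at 81.9, 62.9 and 56.5 CPM in WT and 69.4, 47.2 and 36.6 CPM in BimS, with overlapping ranges and a lower BimS value in each of the 3 pairs (adjusted p = 0.527 without and 5.35e-12 with the block). It was the gene that limma called, and with the replicate block Ccl22 and Ccl9 were called lower. Omitting 1 library removed the call for Cxcl10 (WT replicate 2 or BimS replicate 2).

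The upstream sequences of Cxcl2 and Cxcl3 are printed because these chemokines rose most after Hmox1 among called abundant genes and each holds a match to the NF-kB core letters GGNNTTTCC on either strand. They are the 250 bases before the start from RefSeq, build GRCm38.p6, on the plus strand, with matches in capitals. Cxcl2 is at chr5:90903649-90903898 and Cxcl3 at chr5:90785851-90786100. In 300-base windows the letters occurred in 6.31% of promoters of genes that rose, in 7.83% of 613 promoters of genes that fell, in 6.28% of promoters of genes tested and in 5.82% of all promoters.
Cxcl2: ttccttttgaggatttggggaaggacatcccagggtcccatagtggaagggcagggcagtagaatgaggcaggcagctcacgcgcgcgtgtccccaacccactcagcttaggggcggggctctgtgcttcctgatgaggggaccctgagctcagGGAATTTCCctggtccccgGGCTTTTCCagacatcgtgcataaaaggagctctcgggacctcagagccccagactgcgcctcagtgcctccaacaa
Cxcl3: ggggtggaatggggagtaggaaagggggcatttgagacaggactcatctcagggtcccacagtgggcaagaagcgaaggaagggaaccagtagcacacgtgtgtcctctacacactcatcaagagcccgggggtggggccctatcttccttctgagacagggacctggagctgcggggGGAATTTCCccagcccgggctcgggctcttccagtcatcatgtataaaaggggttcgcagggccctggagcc

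Of 25 cytokine genes tested 4 rose and 2 fell, and with the block 8 rose and 3 fell. Their median was 0.07, or 0.26 without BimS replicate 1. Areg, which encodes the epithelial growth factor amphiregulin, went from 31.7, 26.6 and 36.7 CPM to 57.6, 50 and 61.8 CPM (log2 fold change 0.83 ± 0.11 (SE), adjusted p = 5.04e-05). Inhba, a subunit of activin A, went from 44.1, 37.6 and 38.3 CPM to 69.4, 59.9 and 63.5 CPM (log2 fold change 0.68 ± 0.10 (SE), adjusted p = 9.79e-05). Il1rn, the antagonist of the IL-1 receptor, rose by 0.51 and the angiogenic factor Vegfa by 0.40. Il16 and Tnfsf9, the ligand of the costimulatory receptor 4-1BB, fell by 1.35 and 1.01 from means of 1.15 and 4.93 CPM. Il1b was the most abundant cytokine mRNA, at 4711, 4995 and 5820 CPM in WT and 5706, 5923 and 6649 CPM in BimS. Its ranges overlapped and its adjusted p was 0.121 without and 1.34e-09 with the block, and it was also called without the filter on low counts and without WT replicate 3. Il6 differed by 0.22 (adjusted p = 0.21 without and 0.00166 with the block) and Tgfb1 by 0.21 (adjusted p = 0.129 and 2.98e-05). With limma and the block, Il1b, Il6 and Tgfb1 were not called. Leaving out 1 library ended the call for Il16 (WT replicates 2 or 3 or BimS replicates 1 or 3). Vegfa was not called by limma, and Il16 was not called by DESeq2.

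In the pathway of prostaglandins and leukotrienes 5 of 18 genes tested rose and 1 fell. The median was -0.056, but it was 0.18 with the stricter filter of edgeR (filterByExpr), -0.24 with limma and -0.30 without BimS replicate 3. Ptgs2, the inducible cyclooxygenase, went from 36.9, 38.4 and 27.6 CPM in WT to 110, 119 and 98.5 CPM in BimS (log2 fold change 1.67 ± 0.11 (SE), adjusted p = 1.68e-08). Pla2g4a, the phospholipase that releases arachidonic acid, went from 22.8, 19.6 and 19.6 CPM to 46.7, 43.9 and 43.1 CPM (log2 fold change 1.11 ± 0.10 (SE), adjusted p = 6.36e-07). Both had BimS samples above every WT sample. Tbxas1, thromboxane synthase, rose by 0.76 and Ptges3 by 0.28, beside the receptor Ptgir, while Ptger4, a receptor for prostaglandin E2, fell by 0.40. With 1 library left out, the call was lost for Ptges3 (WT replicate 2 or BimS replicates 1, 2 or 3) and Ptger4 (WT replicates 1 or 2 or BimS replicates 2 or 3). Ptges3 was not called by limma.

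Interferon-stimulated genes formed the list with the most falls. Of 50 genes, all tested, 38 fell and 12 were not called. None rose by edgeR, DESeq2 or limma, nor did any at an unadjusted p under 0.05. The median change was -0.77, and with the block 44 fell. The median of the list relative to the mean of the WT samples was -0.69, -0.94 and -0.76 on the log2 scale in the 3 BimS samples, and between -0.04 and 0.041 in the 3 WT samples. Ifit1 stood at 41.7, 42 and 42 CPM in WT and 24.1, 15.4 and 19.7 CPM in BimS (log2 fold change -1.09 ± 0.13 (SE), adjusted p = 2.42e-05). Mx2, an antiviral GTPase, stood at 11.8, 10.6 and 11 CPM and 6, 4.28 and 4.61 CPM (log2 fold change -1.17 ± 0.17 (SE), adjusted p = 9.33e-05). Oas1g fell by 1.27 and Ifit3b by 1.17. The ranges did not overlap in these 4 genes. Among the members that were not called were Parp14, at 406, 351 and 274 CPM in WT and 268, 231 and 199 CPM in BimS (adjusted p = 0.0603 without and 5.14e-38 with the block), and Ms4a4c (adjusted p = 0.079 and 2.73e-10). Without the block Parp14 was called lower by DESeq2, limma, both other filters and without WT replicate 3 or BimS replicate 1, and Ms4a4c with no filter and without WT replicate 1 or BimS replicate 3.

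The upstream sequences of Ifit1 and Ifit3 are given because both genes fell and each holds 3 matches to the core letters of the interferon-stimulated response element, GAAANNGAA on either strand. In Ifit1 a pair of them overlap and form the first run in capitals. They are 250 bases from RefSeq on build GRCm38.p6, at chr19:34640639-34640888 and chr19:34583279-34583528, on the plus strand, with matches to this motif and to the NF-kB letters in capitals. In Ifit3 the first run in capitals is the NF-kB match. The interferon letters were present in 57.8% of 45 promoters of the interferon list, in 14.5% of promoters of genes that fell, in 5.35% of promoters of genes that rose, in 7.49% of promoters of genes tested and in 8.56% of all promoters.
Ifit1: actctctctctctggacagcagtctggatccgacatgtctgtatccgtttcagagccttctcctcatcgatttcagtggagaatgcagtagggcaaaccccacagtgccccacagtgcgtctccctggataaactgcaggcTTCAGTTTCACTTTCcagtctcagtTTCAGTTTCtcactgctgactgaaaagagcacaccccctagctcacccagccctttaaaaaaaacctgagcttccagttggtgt
Ifit3: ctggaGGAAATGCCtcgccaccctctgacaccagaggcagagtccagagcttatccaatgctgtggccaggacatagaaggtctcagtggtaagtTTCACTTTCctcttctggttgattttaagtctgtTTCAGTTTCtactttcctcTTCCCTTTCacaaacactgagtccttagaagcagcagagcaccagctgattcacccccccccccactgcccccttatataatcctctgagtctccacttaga

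Of 24 genes for costimulation and migration 1 rose and 3 fell, with a median of -0.043. With the block 7 rose and 9 fell, DESeq2 called 4 higher and 3 lower, limma 3 lower and none higher, and without the filter on low counts 8 were called. Cd83, a maturation marker that stabilises MHC class II at the surface, went from 1459, 1475 and 1651 CPM to 1130, 1140 and 1194 CPM (log2 fold change -0.40 ± 0.08 (SE), adjusted p = 0.00148). Icosl, the ligand of ICOS, went from 75.7, 80.3 and 73.5 CPM to 45.7, 48 and 45.5 CPM (log2 fold change -0.72 ± 0.09 (SE), adjusted p = 2.62e-05). Il4ra, the receptor chain for IL-4 and IL-13, rose by 0.37, and Tnfsf9 is the third that fell. Il4ra was not called by limma.

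Among the surface molecules stained in the study Cd80, Cd86, Cd40, Ccr7 and Cd274 were measured at high levels and were not called by edgeR in the fit without the block. Cd80 stood at 790, 768 and 772 CPM in WT and 736, 701 and 721 CPM in BimS, a difference of -0.11 (adjusted p = 0.461, and 0.0235 with the block). Cd86 stood at 791, 839 and 892 CPM and 748, 788 and 783 CPM, a difference of -0.12 (adjusted p = 0.445 and 0.0121). Both ligands of CD28 were thus slightly lower in every BimS sample. Cd40 differed by -0.22 (adjusted p = 0.17 and 0.000231) and Ccr7, the receptor that guides cDCs to lymph nodes, by -0.20 (adjusted p = 0.333 and 4.19e-06). Cd274, which encodes PD-L1, stood at 1038, 889 and 734 CPM in WT and 1255, 1154 and 1034 CPM in BimS, a difference of 0.37 (adjusted p = 0.0803 and 1.43e-21). It was also called higher without the block by DESeq2, without the filter on low counts, without WT replicate 1 and without BimS replicate 3. With limma and the block none of these 5 genes was called, with adjusted p from 0.11 to 0.473.

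For MHC class II presentation 1 of 19 genes rose and 2 fell, with a median of -0.11, and with the block 3 rose and 9 fell. Without BimS replicate 1 a single gene was called. The cathepsin Ctss, which trims the invariant chain, went from 568, 627 and 685 CPM to 434, 494 and 498 CPM (log2 fold change -0.40 ± 0.09 (SE), adjusted p = 0.00689), and Ifi30, a lysosomal thiol reductase, fell by 0.42. Marchf1, a ubiquitin ligase that removes MHC class II from the surface, rose by 1.43 from a mean of 1.42 CPM. The invariant chain Cd74 itself stood at 7093, 8517 and 9426 CPM in WT and 7150, 8658 and 9263 CPM in BimS (adjusted p = 0.992). In the MHC class I list 4 of 20 genes fell and the other 16 were not called, with a median of -0.11 (-0.18 with limma), and with the block 9 fell and 4 rose. The 4 were the immunoproteasome subunits Psmb9 (-0.55) and Psmb8 (-0.44), the peptide transporter Tap1 (-0.48) and the transactivator Nlrc5 (-0.39). They are themselves induced by interferon. H2-D1 and B2m, the class I heavy and light chains, differed by 0.11 and -0.01 (adjusted p = 0.59 and 0.957, and 0.0189 and 0.881 with the block). Omitting 1 library removed the call for Ctss (BimS replicate 1), Ifi30 (WT replicates 2 or 3 or BimS replicates 1 or 2) and Nlrc5 (WT replicates 1 or 2 or BimS replicates 2 or 3).

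Of 27 genes of the AP-1, EGR and immediate early group 7 rose and 2 fell, with a median of 0.051, and with the block 9 rose and 5 fell. The 9 calls were 4 with limma and 5 without WT replicate 2 or BimS replicate 1. Fosl1, an AP-1 subunit, went from 3.54, 4.2 and 3.85 CPM to 8.06, 10.3 and 9.7 CPM (log2 fold change 1.28 ± 0.17 (SE), adjusted p = 4.08e-05). Egr2 rose by 0.74, Ier3 by 0.52 and the MAP kinase phosphatases Dusp1 and Dusp5 by 0.41 and 0.39, while the orphan nuclear receptor Nr4a1 fell by 0.36. NF-kB subunits and their feedback inhibitors had 1 rise and 1 fall among 23, with a median of -0.015, and 3 and 4 with the block. The calls dropped to 1 with limma, with the 2 groups alone and with any of the 6 libraries left out, and the median was -0.084 with limma, 0.016 without BimS replicate 2 and 0.023 without BimS replicate 3. Tnip3, an inhibitor of NF-kB signalling, went from 80.8, 86.8 and 88.2 CPM to 44.9, 48.9 and 45.7 CPM (log2 fold change -0.87 ± 0.08 (SE), adjusted p = 7.73e-07), and its relative Tnip2 rose by 0.28. Leaving out 1 library ended the call for Nr4a1 (WT replicate 2 or BimS replicates 1 or 3) and Tnip2 (any of the 6 libraries). Egr2, Dusp1, Dusp5 and Tnip2 were not called by limma.

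In the list of ATF4 and the amino acid response 4 of 26 genes rose and 6 fell, with a median of -0.16, and with the block 4 rose and 16 fell. The 10 calls were 4 without WT replicate 2, 5 without WT replicate 3 and 6 without BimS replicate 1. Cebpb, a transcription factor of myeloid cells, went from 26.8, 39 and 34.4 CPM in WT to 62.6, 102 and 114 CPM in BimS (log2 fold change 1.48 ± 0.24 (SE), adjusted p = 0.0115). Ddit4, an inhibitor of mTORC1, rose by 0.65. The stress gene Nupr1, the glutathione-degrading enzyme Chac1 and the amino acid transporter Slc7a5 fell by 0.74, 0.67 and 0.52, and Atf4 differed by -0.13 (adjusted p = 0.516 and 0.0107). Heat shock genes and chaperones had 2 rises and 1 fall among 22, with a median of 0.13, and 9 and 2 with the block. The calls were 5 without WT replicate 3 or without the filter on low counts, and the median was 0.065 without WT replicate 2. The chaperone Hspa8 went from 1363, 1377 and 1507 CPM to 1101, 1009 and 1063 CPM (log2 fold change -0.42 ± 0.08 (SE), adjusted p = 0.00147), and its cofactors Dnajb4 and Bag3 rose by 0.60 and 0.37. With 1 library left out, the call was lost for Cebpb (WT replicate 3), Nupr1 (WT replicates 2 or 3), Slc7a5 (WT replicates 2 or 3 or BimS replicates 1 or 3) and Bag3 (WT replicate 2 or BimS replicate 1). Bag3 was not called by limma.

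Glycolysis had 6 rises and 1 fall among 24 genes, with a median of -0.02, and 8 rises and 4 falls with the block. Slc16a3, which exports lactate, rose by 0.66, Pfkfb3, which makes an activator of phosphofructokinase, by 0.64, Aldoa by 0.51, Pkm by 0.48 and the glucose transporter Slc2a1 by 0.39, while Tpi1 fell by 0.46. Of 30 genes for lysosomes and their TFEB family of regulators 3 rose and 3 fell, with a median of -0.073 (-0.18 without BimS replicate 3), and with the block 6 rose and 12 fell. Mitf, a member of that family, went from 17.2, 14.9 and 12.7 CPM to 35.3, 37 and 31.9 CPM (log2 fold change 1.21 ± 0.11 (SE), adjusted p = 5.38e-07). The proton pump subunits Atp6v1a and Atp6v1h rose by 0.53 and 0.36. Progranulin (Grn) and the cathepsin Ctsh fell by 0.98 and 0.39. Omitting 1 library removed the call for Slc2a1 (BimS replicate 2), Tpi1 (WT replicate 3 or BimS replicates 1 or 2), Atp6v1h (WT replicate 2 or BimS replicates 2 or 3) and Ctsh (WT replicate 2 or BimS replicate 1). Slc2a1 and Atp6v1h were not called by limma, and Tpi1 was not called by DESeq2.

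Receptors and bridging molecules for uptake of dead cells had 2 rises and 2 falls among 29, and 9 and 4 with the block. The 4 calls were 2 with DESeq2 or limma, 1 without BimS replicate 2, and 2 without WT replicates 2 or 3 or BimS replicates 1 or 3. The median was -0.15, or -0.0045 without WT replicate 2. Cd36 and the scavenger receptor Lrp1 (0.42) rose, and Cd300lf (-0.86) and the phosphatidylserine receptor Timd4 (-0.32) fell. Toll-like receptors and nucleic acid sensors had 2 rises and 3 falls among 22, with a median of -0.13, and 4 and 7 with the block. The 5 calls were 3 with limma and without WT replicate 2. Unc93b1, which delivers endosomal Toll-like receptors, went from 65, 67.9 and 74.9 CPM to 39.9, 42.7 and 41.6 CPM (log2 fold change -0.74 ± 0.09 (SE), adjusted p = 1.02e-05). Sting1 and Cgas, adaptor and sensor for cytosolic DNA, fell by 0.63 and 0.44, and Cd14 and Tlr1 rose by 0.46 and 0.40. Leaving out 1 library ended the call for Lrp1 (BimS replicate 2), Cd300lf (WT replicates 2 or 3 or BimS replicates 1, 2 or 3), Timd4 (any of the 6 libraries), Cgas (WT replicate 2 or BimS replicates 1 or 3), Cd14 (WT replicates 1 or 3 or BimS replicates 2 or 3) and Tlr1 (WT replicate 2). Lrp1, Timd4, Cgas, Cd14 and Tlr1 were not called by limma, and Cd300lf and Timd4 were not called by DESeq2.

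Of 14 genes for metallothioneins and zinc transport 4 rose and 10 were not called, with a median of 0.18 (0.11 with limma). With the block 7 rose and 2 fell, and without WT replicate 2, BimS replicate 2 or BimS replicate 3 the calls were 2. The 4 that rose were Slc39a4 (from a mean of 1.24 to 3.5 CPM), Mt1 (0.81), Slc30a1 (0.67) and Slc39a14 (0.53). Of 32 genes of cell division Ccne2 (1.15) and Mcm5 (0.44) rose and 30 were not called, with a median of -0.12, and with the block 2 rose and 4 fell, while limma called 1. In the BCL2 family and death receptor list 2 of 25 rose and 3 fell, with a median of -0.17, and with the block 6 rose and 10 fell. The 5 calls were 3 without WT replicate 2, BimS replicate 2 or BimS replicate 3. Bax, which permeabilises the mitochondrial outer membrane, rose by 0.34. Zbp1, an interferon-induced sensor that can start necroptosis, fell by 0.87, the BH3-only gene Bbc3 by 0.67 and Casp9 by 0.47. Bcl2l11, from which BimS derives and which the dying tumor cells overexpressed, stood at 260, 274 and 235 CPM in WT and 287, 302 and 275 CPM in BimS, a difference of 0.17 (adjusted p = 0.272, and 0.000456 with the block). With 1 library left out, the call was lost for Mt1 (WT replicates 1 or 2 or BimS replicates 2 or 3), Slc30a1 (WT replicate 2 or BimS replicates 2 or 3), Bax (WT replicates 1 or 2 or BimS replicates 1, 2 or 3) and Casp9 (WT replicates 1 or 2 or BimS replicates 2 or 3). Slc30a1, Mcm5 and Bax were not called by limma, and Casp9 was not called by DESeq2.

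Sirpa and Itgam encode proteins on which the cells were sorted, so their presence is given by the sort. Other members of the cDC2 list ran in WT from Notch2, at 226, 203 and 155 CPM, down to Esam, at 0.462, 0.633 and 0.589 CPM. Members of the cDC1 list ran in WT from Wdfy4, at 58.4, 72.2 and 51.6 CPM, down to Tlr3, at 0.103, 0.345 and 0.161 CPM. Sirpa, the receptor on which cDC2s were gated, stood at 174, 194 and 205 CPM in WT and 179, 187 and 197 CPM in BimS, and Itgam, which encodes CD11b, at 43.7, 54 and 44.3 and 51.8, 62.9 and 47.9 CPM (adjusted p = 0.917 and 0.416, and 0.82 and 0.00487 with the block). Of 14 cDC2 markers Esam (1.98), Dtx1 (1.19), Tarm1 (1.11) and Clec4a4 (0.48) rose and Irf4 fell, while none of 10 cDC1 markers was called by edgeR, DESeq2 or limma, with 1 at an unadjusted p under 0.05 by edgeR. With the block 6 cDC2 markers were called higher and 4 lower, and the cDC1 markers Batf3 and Wdfy4 were called lower (adjusted p = 0.0394 and 4.54e-05). The summed level of the cDC1 markers was 139 to 166 CPM in WT and 126 to 155 CPM in BimS. Among 8 genes of all cDCs Zbtb46 rose by 0.38, and Dpp4 and Flt3 fell by 0.62 and 0.30. Omitting 1 library removed the call for Clec4a4 (WT replicates 1 or 2 or BimS replicates 1 or 3), Zbtb46 (WT replicate 2 or BimS replicates 1 or 2) and Flt3 (WT replicates 1 or 2 or BimS replicates 1, 2 or 3). Clec4a4, Zbtb46 and Flt3 were not called by limma, and Flt3 was not called by DESeq2.

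Among markers of other cells the estimates for macrophage, neutrophil and T and NK cell markers were mostly negative. For 13 macrophage markers the sum was 59.4 to 64.8 CPM in WT and 84.8 to 91.7 CPM in BimS, of which Spic alone made up 42.6, 47.9 and 53.1 CPM in BimS, and 1 rose (Spic) and 1 fell (Timd4, whose call was lost under 12 of the 16 settings). With the block 1 rose and 3 fell, and 12 of the 13 estimates were negative (median -0.55). The complement genes C1qa, C1qb and C1qc stayed at or below 1.87 CPM in every sample. In the monocyte list Cd14 rose and Plac8 fell by 0.48 (3 and 1 with the block), in the B cell list Ighm fell by 0.37, and in the plasmacytoid list Runx2 rose by 0.45 (1 higher and 1 lower with the block). The sum was 104 to 140 CPM in WT and 102 to 130 CPM in BimS for monocyte markers, 35.9 to 41.2 and 27.3 to 33.2 CPM for B cell markers, and 256 to 265 and 274 to 286 CPM for plasmacytoid markers, beside 574 to 616 and 596 to 618 CPM for cDC2 markers. For neutrophil markers it was 3.68 to 5.56 CPM in WT and 2.24 to 2.78 CPM in BimS, and for T and NK cell markers 2.99 to 4.12 and 1.24 to 2.3 CPM. Of 6 neutrophil markers tested 5 estimates were negative (median -1.2), and Ngp, a granule protein, fell from a mean of 0.36 CPM to 0 in every BimS sample (adjusted p = 0.00828), a gene for which DESeq2 gave no adjusted p. With the block 2 were called lower. Of 8 T and NK cell markers tested 7 estimates were negative (median -0.69), and Cd2 and Cd3g fell from means of 1.11 and 0.526 CPM to 0.311 and 0.111 CPM (adjusted p = 0.00745 and 0.0341). Erythroid markers summed to less than 1 CPM in every sample, with Hba-a1 and Slc4a1 at 0 in all 6. None of the 3 erythroid markers tested was called by edgeR, DESeq2 or limma, but 1 was higher at an unadjusted p under 0.05, Hbb-bt, at 0.103, 0.115 and 0.161 CPM in WT and 0.424, 0.357 and 0.532 CPM in BimS. The part of other cells in these results was not tested. Leaving out 1 library ended the call for Plac8 (WT replicates 2 or 3 or BimS replicates 1 or 2), Ighm (WT replicates 2 or 3 or BimS replicates 1 or 2), Runx2 (WT replicate 2 or BimS replicates 1 or 2), Cd2 (BimS replicate 2) and Cd3g (WT replicates 1 or 2 or BimS replicates 1, 2 or 3). Runx2 was not called by limma.

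Tumor RNA carried over with the debris was looked for with 24 epithelial and adherent cell markers of which 14 could be tested. Krt7 and Lgals7 were at 0 in all 6 samples, and Krt8, Krt18, Cldn4 and Cldn7 did not exceed 0.257 CPM. The summed level was 117 to 136 CPM in WT and 189 to 232 CPM in BimS. Thbs1, thrombospondin 1, which myeloid cells also make, carried that difference with 46.8, 52.4 and 48.2 CPM in WT and 132, 162 and 136 CPM in BimS (log2 fold change 1.55 ± 0.09 (SE), adjusted p = 1.86e-09), and it was the one marker that edgeR called without the block. At an unadjusted p under 0.05 edgeR had 2 higher, Thbs1 and Ccn2 (which did not exceed 0.243 CPM), and 4 lower. DESeq2 called 1 lower and limma 2, and with the block Cdh1, S100a6, Sparc and Cald1 were called lower. Fewer cells with a transcript and less of it per cell cannot be told apart in these bulk samples.

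A list of 38 genes that the study drew as higher with BimS in cDC2s was also read out. Because it was chosen on these samples it is no independent evidence of direction. Of 35 tested 16 rose and 19 were not called, with a median of 1.5. The whole list summed to 47.5 to 52.2 CPM in WT and 132 to 155 CPM in BimS. Itgb8, an integrin chain that activates TGF-β, went from 1.49, 1.73 and 1.45 CPM to 7.76, 5.92 and 5.08 CPM (log2 fold change 2.00 ± 0.22 (SE), adjusted p = 5.26e-06). Il36g, a cytokine of the IL-1 family, went from 2.72, 1.78 and 3.16 CPM to 8, 8.46 and 10.3 CPM (log2 fold change 1.80 ± 0.19 (SE), adjusted p = 2.95e-06). The transporters Abcc2 and Abcc3 rose by 1.75 and 1.62, and Sstr5, a somatostatin receptor, went from 0.103, 0.0575 and 0.107 CPM to 0.97, 0.765 and 1.12 CPM. With 1 library left out, the call was lost for Abcc3 (WT replicates 2 or 3 or BimS replicates 1, 2 or 3). Abcc3 was not called by limma or DESeq2.

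Both subsets were sorted after the CD11c+ cells had been cultured together, so their libraries are separate but cultures and medium can be shared. The same contrast in cDC1s called 2576 of 19513 genes (13.2%). Of the cDC2 calls 889 were also called in cDC1s, 879 of them in the same direction, which is 65.9% of the cDC2 calls and 34.5% of the cDC1 calls. To see where the subsets differ, the difference between their responses was tested over all 17 samples. It was called for 166 of 19082 genes (0.870%), with a higher estimate in cDC2s for 59 and a lower one for 107, and with the replicate block for 443. The split into higher and lower was 11 and 56 with limma, and 246 and 253 with DESeq2 and the block. The count was 93 without WT cDC1 replicate 1, 104 without BimS cDC1 replicate 1 and 100 without BimS cDC1 replicate 3. Of the genes called in cDC2s, 96 of 1347 were among them.

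Met showed the largest excess, since it changed by 1.84 on the log2 scale in cDC2s and by 0.09 in cDC1s, a difference of 1.75, adjusted p = 1.24e-06. Mmp19, a matrix metalloproteinase, changed by 1.40 and -0.0046 (1.41, adjusted p = 6.83e-08), and Sgk1 by 1.96 and 0.72 (1.24, adjusted p = 6.03e-09). Fbxo31 and Plekha5 followed with differences of 0.96, adjusted p = 0.000657 and 0.95, adjusted p = 2.07e-05. These 5 genes rose in cDC2s, and of them only Sgk1 was called in cDC1s. Vegfa rose by 0.40 in cDC2s against -0.28 in cDC1s (0.69, adjusted p = 3.55e-05), Pfkfb3 by 0.64 against -0.28 (0.93, adjusted p = 2.02e-06), and Inhba by 0.68 against 0.01 (0.67, adjusted p = 0.0268).

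In the other direction Dnah2 changed by 0.69 in cDC2s and 2.27 in cDC1s (-1.57, adjusted p = 0.013), Cdcp1 by 1.25 and 2.78 (-1.53, adjusted p = 0.0447), and Fosl1 by 1.28 and 2.75 (-1.47, adjusted p = 0.00645). Selp and Zeb2, a transcription factor that favours cDC2s and monocytes, were not called in cDC2s by edgeR without the block (-0.42 and 0.46, adjusted p = 0.0818 and 0.0935, and 3.2e-05 and 2.43e-25 with it). Limma also called both, and DESeq2 called Zeb2. The responses of Selp and Zeb2 differed by -1.39, adjusted p = 0.00497 and -1.35, adjusted p = 0.0057. Of the 31 heme and NRF2 genes 7 responded differently, and all 7 rose less in cDC2s: Osgin1 (-1.34, adjusted p = 3.55e-05), Nqo1 (-1.18, adjusted p = 0.0291), Srxn1 (-0.91, adjusted p = 4.99e-06), Gsr (-0.69, adjusted p = 0.000536), Slc7a11 (-0.64, adjusted p = 0.0498), Gclm (-0.48, adjusted p = 0.0134) and G6pdx (-0.45, adjusted p = 0.028). For Hmox1 no difference was called (3.34 and 3.05, adjusted p = 0.729). With the block 10 were called, each with a smaller change in cDC2s. The list rose by a median of 0.93 in cDC2s and 1.2 in cDC1s.

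The interferon list had a median of -0.77 in cDC2s, with 38 falls, and of -0.46 in cDC1s, with 19 falls and 1 rise. The difference was called for 3 of the 50 genes, each more negative in cDC2s: Dhx58 (-0.86, adjusted p = 0.00671), Oasl2 (-0.87, adjusted p = 0.0346) and Samd9l (-0.47, adjusted p = 0.0436). With the block 10 were called more negative and 1 more positive. For the cholesterol list the medians were 0.40 and 0.19, with 15 and 9 rises, and Fdps was the 1 gene called (0.55, adjusted p = 0.0337), while the block called 3, each with a larger change in cDC2s. Lipa rose less in cDC2s (-0.76, adjusted p = 0.000133) and Lrp1 more (0.67, adjusted p = 0.00131).

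**Figure D4:**
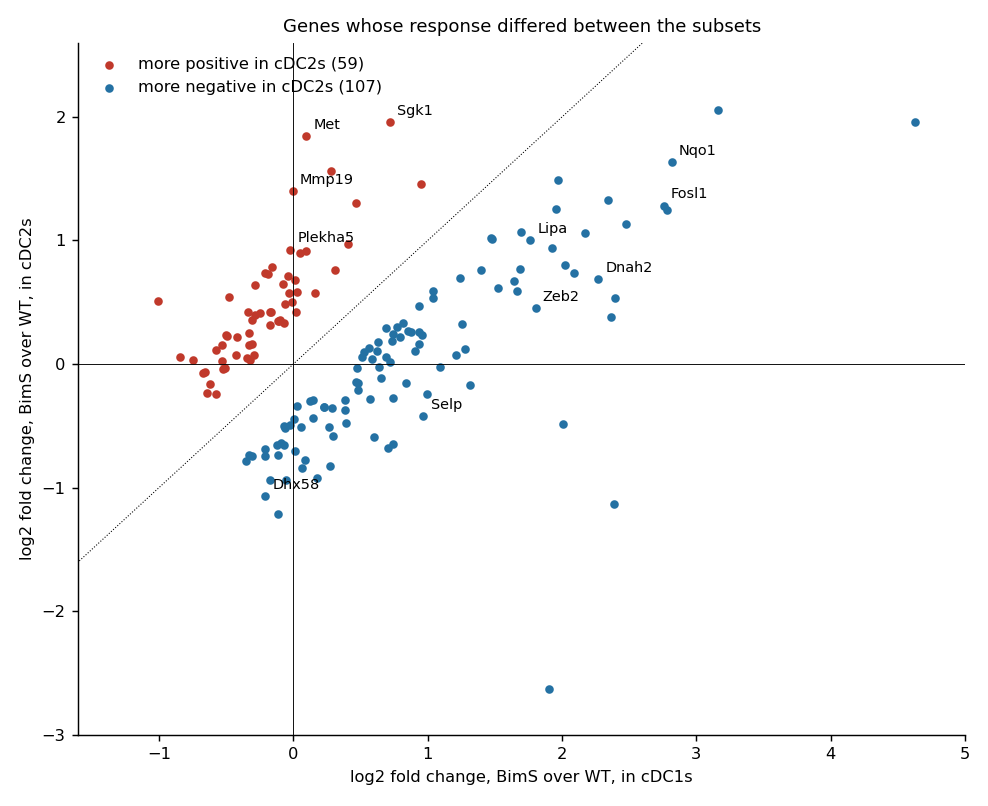
Each of the 166 genes whose response differed between the subsets is placed by its log2 fold change with BimS debris over WT medium in cDC1s (horizontal) and cDC2s (vertical), and the dotted diagonal marks equal responses. The 59 red genes lie above it and the 107 blue genes below it, with Met at 1.84 in cDC2s and 0.09 in cDC1s.

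Where the response differed from that to necroptotic debris was read from the direct contrast with medium of dying TC-1-iRIPK3 cells, of which there are 2 cDC2 samples. The contrast called 73 of 19239 genes (0.379%), 31 higher and 42 lower with RIPK3. With limma 17 were higher and 131 lower, and with limma and the block 36 and 445. The count depended on the setting: it was 2755 with the replicate block, and without RIPK3 replicate 2 edgeR called no gene, with 898 at an unadjusted p under 0.05. It was 12 without RIPK3 replicate 1, 23 without BimS replicate 1 and 38 without BimS replicate 2, while DESeq2 called 141 and limma 148. At an unadjusted p under 0.05 edgeR had 1653 of the 19239 genes. Of the genes called between BimS and WT, 44 were among the 73, and in 37 of these RIPK3 lay further from WT than BimS did.

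Of the 50 interferon-stimulated genes 17 were lower with RIPK3 than with BimS by edgeR, 27 by DESeq2 and 33 by limma, and none was higher by these or at an unadjusted p under 0.05. Ifit1 stood at 7.61 and 5.65 CPM in the 2 RIPK3 samples, below 24.1, 15.4 and 19.7 CPM in BimS (log2 difference -1.57 ± 0.17 (SE), adjusted p = 0.000476). Ifit3 stood at 5.44 and 3.38 CPM, below 12.8, 9.38 and 13.4 CPM (-1.43 ± 0.20 (SE), adjusted p = 0.00232), and Oasl2 at 103 and 87.1 CPM, below 180, 153 and 195 CPM (-0.89 ± 0.11 (SE), adjusted p = 0.000742). The levels of these genes were therefore highest with WT medium, lower with BimS and lowest with RIPK3 in every sample. With the block 41 of the 50 were called lower and 1 higher. Of the heme and NRF2 genes none was called between the debris types by edgeR without the block, with 5 higher and 1 lower at an unadjusted p under 0.05, and DESeq2 and limma each called 1, while the block called 9 higher and 3 lower. Of the cholesterol genes edgeR without the block called none, with 1 higher and 10 lower at an unadjusted p under 0.05, while DESeq2 called 1, limma 3 and the block 2 higher and 12 lower. Hmox1 stood at 2579 and 2720 CPM with RIPK3 and 1380, 1569 and 1658 CPM with BimS (adjusted p = 0.0673 without and 0.00356 with the block). Ptgs2 was higher with RIPK3, at 195 and 175 CPM against 110, 119 and 98.5 CPM (0.76 ± 0.12 (SE), adjusted p = 0.00605), as was Ddit4 at 109 and 99.1 CPM against 65.3, 61.2 and 69.8 CPM (0.67 ± 0.11 (SE), adjusted p = 0.00699). Chac1, which was lower with BimS than with WT, was at 13.5 and 17.4 CPM with RIPK3 (0.81 ± 0.15 (SE), adjusted p = 0.015). Itgb8 was lower with RIPK3, at 2.94 and 1.81 CPM against 7.76, 5.92 and 5.08 CPM (-1.40 ± 0.24 (SE), adjusted p = 0.0107).

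**Figure D5:**
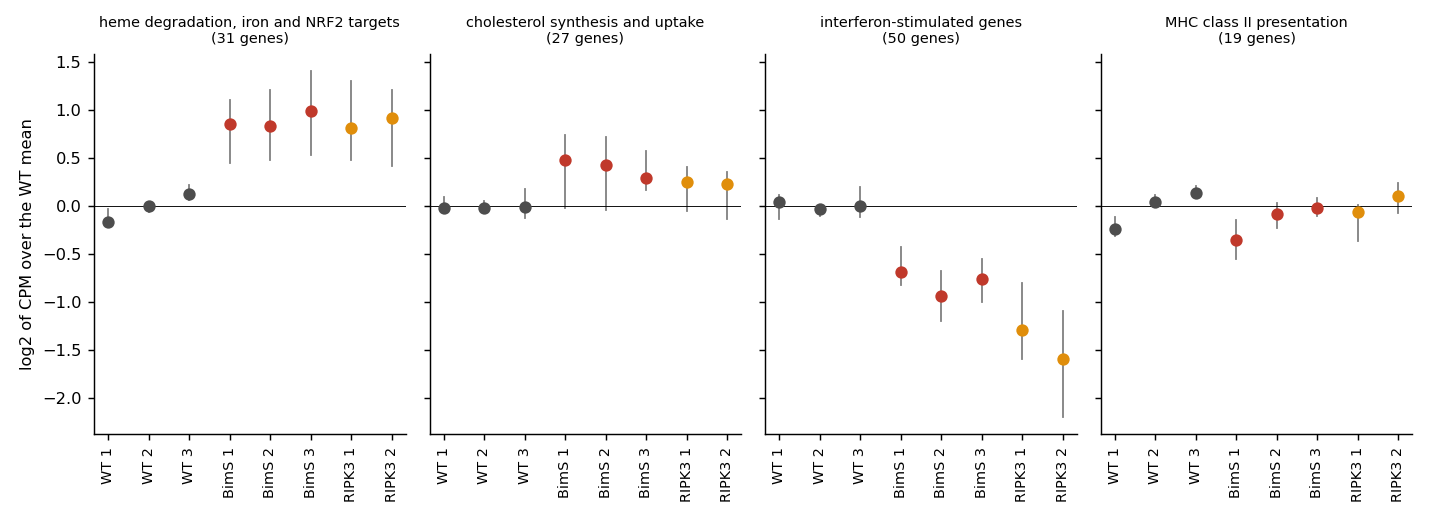
For each of the 8 cDC2 samples the point gives the median, and the line the middle part of the distribution between quartiles, of log2 CPM relative to the WT mean over the tested genes of a list. The heme and NRF2 list stood at 0.83 to 0.98 with BimS and at 0.81 and 0.91 with RIPK3, and the interferon genes stood at -0.69 to -0.94 with BimS and at -1.3 and -1.6 with RIPK3.

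Some named genes share their place in the genome with another gene, and whether the counting used strand is not stated. Of the named genes 89 overlap another gene of the table, and in 10 of them the partner on the opposite strand was the more abundant: Il16, Psmb9, Sqle, Cyp51, Fosl1, Dnajb4, Slc16a3, Ccne2, Tbxas1 and Mmp19. Reads of such a gene and its partner cannot be told apart here, so their values are uncertain. Fth1, Ftl1, Gclm, Gclc, Gsr, Gpx1, G6pdx, Osgin1, Srxn1, Oasl2, Samd9l, Fdps, Sparc and Cald1 lie outside the rule for named genes and were chosen after their values were seen.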

How the data were processed

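Per the study's methods, the authors enriched polyadenylated RNA, trimmed paired reads with SeqPurge, aligned them to mouse build GRCm39 with STAR 2.7.10a and summarised them per gene with gensum. The deposited table holds raw counts per gene, 1 column for each of 17 samples, with 148 lines without an identifier, which took 0.0262% to 0.028% of the counts in the 6 samples compared and were left out. Whether strand was used in counting is not given in the sources used here. Symbols and GRCm39 positions came from GENCODE M39, which held 30854 of 31091 identifiers. Promoter sequences came from a RefSeq table on GRCm38.p6.

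A gene was tested if 50% or more of the samples in a fit had a count above 0. The test was that of edgeR 4.0.16 (TMM, robust quasi-likelihood test, R 4.3.3), with Benjamini-Hochberg adjustment over all genes tested and a threshold of 0.05. The fit held the 8 cDC2 samples, which share 1 estimate of spread. The difference between cDC2s and cDC1s was an interaction term over all 17 samples. CPM are counts over effective library sizes. The SE of an edgeR log2 fold change is its absolute value divided by the square root of the F statistic of the test. The code was tested on simulated data. Alternatives were RLE size factors, DESeq2 1.42.0, limma 3.58.1 on log2(count + 1), other filters, the 2 groups alone, the replicate block and each library left out. The limma fits had no scaling for library size. The replicate block with DESeq2 and with limma was added after seeing the data. Deviations from the group means correlated at 0.666, 0.533 and 0.788 between WT and BimS samples of the same number over 7738 genes. With RIPK3 samples of the same number the values were lower, 0.372 and 0.277 for WT and 0.427 and 0.265 for BimS. The numbers were taken to pair the samples in each blocked fit, a pairing read from the data.

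Named genes were the 15 largest rises and falls among called genes with an average log2 CPM of at least 3 and ranges that do not overlap, up to 6 called and 3 uncalled members of each list, the 5 largest interactions in each direction, Bcl2l11 and the stained surface markers. Not every gene the rule allows is named, and some are not reported here. Members and lists were chosen with earlier results of these data known.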

Additional observations from a re-analysis of the deposited data

Results flagged for a closer look

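The genes below responded differently to BimS debris in cDC2s and cDC1s, by the interaction term of edgeR over 17 samples with an adjusted p under 0.05. Values are the log2 fold change in cDC2s minus that in cDC1s.

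Genes with the higher response in cDC2s were Met (1.75), Mmp19 (1.41), Sgk1 (1.24), Fbxo31 (0.955), Plekha5 (0.952), Pfkfb3 (0.926), Ddit4 (0.725), Il6 (0.719), Vegfa (0.685), Inhba (0.671), Lrp1 (0.669) and Fdps (0.555). Among them Vegfa, Pfkfb3 and Lrp1 rose in cDC2s and fell in cDC1s.

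Heme and NRF2 genes with the lower response in cDC2s were Osgin1 (-1.34), Nqo1 (-1.18), Srxn1 (-0.913), Gsr (-0.695), Slc7a11 (-0.635), Gclm (-0.48) and G6pdx (-0.448). Interferon-stimulated genes with the more negative change in cDC2s were Oasl2 (-0.866), Dhx58 (-0.858) and Samd9l (-0.472), which fell there.

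Immediate early genes with the lower estimate in cDC2s were Fosl1 (-1.47), Egr2 (-1.34) and Nr4a1 (-0.639), of which Nr4a1 fell there. The others with the lower estimate were Dnah2 (-1.57), Cdcp1 (-1.53), Selp (-1.39), Zeb2 (-1.35), Sel1l3 (-1.1), Slc30a1 (-0.967), Lipa (-0.757) and Unc93b1 (-0.529). Of these, Unc93b1 was called lower in cDC2s.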

How the results depend on the processing

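The count of genes called between BimS and WT (1349) was 1324 with DESeq2, 1059 with limma, 4103 with the replicate block, 4085 with the block and these groups alone, 2619 with DESeq2 and the block, and 783 to 1504 with each library left out. Of the calls 54.3% were higher with BimS, against 42.1% with limma and 38.8% with limma and the block, and 64.7% with DESeq2 and the block. The limma fits were not scaled for library size, and the cause of these shifts was not tested.

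The interaction count (166) was 261 with DESeq2, 67 with limma, 315 with no filter, 443 with the replicate block, 322 with the block and these groups alone, 499 with DESeq2 and the block, and 93 to 234 with a library left out. The count between RIPK3 and BimS (73) was 141 with DESeq2, 148 with limma, 46 with filterByExpr, 300 with no filter, 253 with these groups alone, 2755 with the replicate block, 2603 with the block and these groups alone, 1679 with DESeq2 and the block, 481 with limma and the block, and 0 to 53 with a library left out.

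A few uncalled differences near 0 changed sign. Cd74 was -0.0667 with limma, with or without the block, and -0.102 to 0.103 with a library left out. B2m was 0.0055 with RLE factors and DESeq2, 0.0051 with no filter, 0.0052 with DESeq2 and the block, and -0.0656 to 0.0354 with a library left out. Sirpa ranged from -0.0878 to 0.0289 in this way. The median of the CXC chemokines was -0.079 with no filter and -0.2 to 2.0 with a library left out.

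With 3 samples a group the precision is limited, and genes at a few counts per library are the least certain. The blocked fit of the 8 cDC2 samples leaves 3 residual degrees of freedom. Its median prior degrees of freedom, the weight of the spread shared over genes, were infinite, against 14.3 without the block. For many genes the p-values with the block therefore rest on that shared spread, and very small ones should be read with care.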
